A study of Mus musculus with 12 samples.

Results

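The 40 genes described here encode the collagens, small leucine-rich proteoglycans, matrix glycoproteins, transporters and enzymes that mark fibroblasts of the meninges and of large vessels, together with the basement membrane collagens that vascular cells also make. They were chosen by gene symbol, with earlier results of these data known, and all 40 were found among the 55401 gene identifiers of the count table. RNA came from the medial prefrontal cortex (mPFC) of male mice. All groups had 2 weeks of extinction of conditioned place preference, a memory test in which a drug-paired chamber loses its pull. The saline group had been given saline, not morphine. The study asked which targets lie downstream of the serotonin receptor 5-HT6R during that extinction. Its 3 groups had 4 libraries each. The first had received an adeno-associated virus (AAV) that knocks down 5-HT6R and morphine (AAV-5-HT6Rkd-Morphine, replicates 1, 2, 3 and 5). The next had received a scramble virus and morphine (AAV-Scramble-Morphine, replicates 1, 3, 4 and 5), and the last the scramble virus and saline (AAV-Scramble-Saline, replicates 2, 3, 4 and 5). All animals thus carried a virus, and no libraries combined the knockdown virus with saline. The strain, the promoter in the virus, the cells it enters and whether tissue was pooled are not given in the labels. The labels do not say that each library is a separate animal. The p-values set group differences against the spread between these libraries, which may be technical, so they may not carry over to animals.

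As background, the brain surface is wrapped in pia, arachnoid and dura, whose fibroblasts lay down a matrix of fibrillar collagens I, III and V, decorated by small leucine-rich proteoglycans that set fibril spacing. Pial and perivascular fibroblasts also follow penetrating vessels into the cortex, where their matrix meets the collagen IV and laminin of the vascular basement membrane. Arachnoid and pial cells carry transporters of organic anions, GABA and sulfate, and make prostaglandin D synthase, insulin-like growth factor 2 and retinoic acid. In RNA from a tissue block, fewer cells of a type and less RNA per cell cannot be told apart.

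The promoters of 5 members are shown first. Col4a1 and Col4a2 are a head-to-head pair that shares part of its promoter. Col1a2, Prelp and Postn were among the 6 members with the smallest p for the knockdown with morphine against saline. No member passed the main test in any comparison. Each stretch holds 250 bases before the RefSeq transcription start and 50 from it, 300 in all, on build GRCm38.p6, read 5′ to 3′ on the strand of the gene. They are Col4a1 at chr8:11312777-11313076 (minus), Col4a2 at chr8:11312555-11312854 (plus), Col1a2 at chr6:4505368-4505667 (plus), Prelp at chr1:133921352-133921651 (minus) and Postn at chr3:54360857-54361156 (plus). Capitals mark the CCAAT motif, written ATTGG where it lies on the opposite strand, and the TATAAA motif.
Col4a1: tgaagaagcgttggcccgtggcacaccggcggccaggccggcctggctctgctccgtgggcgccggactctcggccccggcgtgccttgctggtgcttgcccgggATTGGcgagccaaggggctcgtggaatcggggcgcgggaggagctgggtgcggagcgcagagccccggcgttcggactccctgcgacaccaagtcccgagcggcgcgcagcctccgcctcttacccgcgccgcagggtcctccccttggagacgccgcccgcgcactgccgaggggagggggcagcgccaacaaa
Col4a2: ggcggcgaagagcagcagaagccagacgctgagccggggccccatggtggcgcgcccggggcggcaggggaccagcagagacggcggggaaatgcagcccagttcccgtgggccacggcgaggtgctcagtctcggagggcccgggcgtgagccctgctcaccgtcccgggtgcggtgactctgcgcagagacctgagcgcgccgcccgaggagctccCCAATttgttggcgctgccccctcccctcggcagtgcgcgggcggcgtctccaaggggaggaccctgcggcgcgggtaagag
Col1a2: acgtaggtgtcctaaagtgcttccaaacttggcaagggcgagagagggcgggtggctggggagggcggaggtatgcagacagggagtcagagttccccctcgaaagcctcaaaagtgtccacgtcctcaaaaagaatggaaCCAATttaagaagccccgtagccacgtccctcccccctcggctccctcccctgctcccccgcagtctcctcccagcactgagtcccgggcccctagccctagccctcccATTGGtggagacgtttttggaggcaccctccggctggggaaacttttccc
Prelp: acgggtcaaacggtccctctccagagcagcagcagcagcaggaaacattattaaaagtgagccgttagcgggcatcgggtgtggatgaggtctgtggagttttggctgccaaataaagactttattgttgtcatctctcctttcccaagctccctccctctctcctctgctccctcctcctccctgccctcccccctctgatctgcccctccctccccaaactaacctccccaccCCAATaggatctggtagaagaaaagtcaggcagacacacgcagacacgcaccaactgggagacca
Postn: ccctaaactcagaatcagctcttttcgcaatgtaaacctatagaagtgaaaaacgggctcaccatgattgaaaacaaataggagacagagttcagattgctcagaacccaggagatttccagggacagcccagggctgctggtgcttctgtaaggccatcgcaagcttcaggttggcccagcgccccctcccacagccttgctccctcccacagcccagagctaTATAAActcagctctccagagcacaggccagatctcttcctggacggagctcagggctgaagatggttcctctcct

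The collagen IV genes held the motif 145 bases before the start in Col4a1, on the opposite strand, and 32 bases before it in Col4a2. Their annotated gene spans overlap by 22 bases and the 2 stretches share 78 bases. Col1a2 held CCAAT 109 bases before the start and ATTGG at the start itself, and Prelp held CCAAT 15 bases before it. Postn, the gene of periostin, was the one of the 5 with TATAAA, 26 bases before its start. In RefSeq, 30 members matched 40 such stretches, against 32851 in the whole table. CCAAT on either strand was in 35% of the member stretches and 37.4% of all, TATAAA (or TTTATA) in 7.5% and 13.6%, and GGGCGG (or CCGCCC), the Sp1 motif, which is not capitalised above, in 47.5% and 35.7%. None of these 3 motifs contains another, and a match describes letters only.

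Total counts ran from 41483220 to 65739423 per library, of which the members took between 0.124 and 0.261%. All 40 passed the filter on low counts, among 21958 genes tested. Values are CPM, counts scaled to library size by the trimmed mean of M-values (TMM), unless stated otherwise. Slc17a7, a vesicular glutamate transporter of excitatory neurons, stood at 1565 to 2007 CPM. Htr6, the gene the virus targets, averaged 4.77 ± 0.76 CPM with the knockdown and morphine, 5.21 ± 0.32 with scramble and morphine and 6.17 ± 1.60 with scramble and saline (SD, n = 4 each), so it does not check the labels. The ribosomal RNA locus CT010467.1 took 4.57 to 9.38% of counts in the knockdown libraries, 2.38 to 3.04% in the scramble morphine libraries and 3.58 to 5.63% in the saline libraries.

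With the knockdown, among mice given morphine, most fibroblast and basement membrane genes stood above their scramble levels and collagen VI stood below, but no member passed the test. Fbln1, the elastic fibre glycoprotein fibulin-1, averaged 24.97 ± 7.7 CPM with the knockdown against 15.3 ± 3.6 CPM with scramble (SD, n = 4), and Prelp, a proteoglycan that anchors basement membranes to connective tissue, averaged 28.9 ± 8.6 against 20.2 ± 3.1 CPM. Col4a1 and Col4a2, the main chains of vascular basement membrane, had log2 fold changes of 0.54 and 0.42, and Col6a1 and Col6a2, chains of the beaded filaments of collagen VI, had −0.58 and −0.45. The median log2 fold change of the 40 members was 0.27, beside 0.00 over all genes tested, and 31 of 40 lay above 0, beside 50.7% of all genes. The edgeR quasi-likelihood test with Benjamini-Hochberg adjustment called 0 of 40 members, beside 0% of all genes, and the smallest adjusted p of a member was 0.271, for Fbln1. At an unadjusted p under 0.05 stood 11 members, 9 of them higher and 2 lower, beside 5.87% of all genes higher and 6.17% lower, 2643 genes in all. Groups did not overlap for Fn1, higher, and Col6a2, lower, that is 1 member each, beside 2.59 and 3.26% of all genes. DESeq2 called Fbln1 higher (adjusted p = 0.0344) and Col6a1 lower (adjusted p = 0.0373), beside 0.715% of all genes, and limma voom called 0 members, beside 0.00455%. Without knockdown replicate 5, edgeR called Fbln1 and Col4a2 higher (adjusted p = 0.0485 and 0.0451), beside 1.66% of all genes. The 11 members at an unadjusted p under 0.05 were 4 without knockdown replicate 1 (beside 7.92% of all genes in either direction), 7 without knockdown replicate 3 (8.74%), 5 without scramble morphine replicate 4 (10.1%) and 17 without scramble morphine replicate 1 (9.94%). They were 4 with a surrogate variable (7.56%), 7 with library totals as the scaling (15.9%) and 7 without saline replicate 4 and knockdown replicate 3 (9.66%). The median was 0.16 without scramble morphine replicate 4. When the CT010467.1 share, which did not overlap between these groups, was entered as a covariate, the median was −0.11, 14 of 40 members lay above 0 and 3 had an unadjusted p under 0.05, beside 5.15% of all genes.

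After morphine, among mice with the scramble virus, most members stood above their saline levels, again with none past the test. Postn, a matricellular protein of collagen-making fibroblasts, averaged 3.47 ± 0.73 CPM with morphine against 2.16 ± 0.20 with saline (SD, n = 4), and Mgp, an inhibitor of matrix calcification, averaged 19.5 ± 7.0 against 10.4 ± 3.7 CPM. All 4 solute carriers had log2 fold changes between 0.54 and 1.28, the highest being that of Slc47a1 (SE 0.78). All 6 small leucine-rich proteoglycans lay between 0.26 and 0.88, whereas the 3 basement membrane collagens lay between −0.15 and −0.08. The member median was 0.30, beside −0.00 over all genes, and 34 of 40 lay above 0, beside 49.5% of all genes. The edgeR test called 0 of 40 members, beside 0% of all genes, with a smallest adjusted p of 0.999. At an unadjusted p under 0.05 stood 5 members, Postn, Prelp, Mgp, Slc6a13 and Islr, all higher, beside 1.67% of all genes higher and 765 genes in either direction. Postn and Prelp had groups that did not overlap, 2 members beside 1.55% of all genes, and 0 members were lower without overlap, beside 1.77%. DESeq2 called 0 members, beside 0.0182% of all genes, and limma voom called 0, beside 0%. The 5 members were 18 without scramble saline replicate 5 (beside 4.25% of all genes in either direction) and 16 without scramble morphine replicate 4 (4.01%). They were 3 without scramble morphine replicate 5 (2.68%), without scramble saline replicate 3 (2.92%) or 4 (2.55%), and without saline replicate 4 and knockdown replicate 3 (2.67%). They were 13 with limma voom (7.02%), 13 with the replicate number as a block (6.41%) and 8 with the CT010467.1 covariate (3.86%). Without scramble saline replicate 5 the median was 0.45, and with the CT010467.1 covariate it was 0.59.

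The widest differences lay between the knockdown with morphine and scramble with saline, groups that differ in both virus and drug. Postn averaged 4.77 ± 1.02 against 2.16 ± 0.20 CPM (SD, n = 4), Prelp 28.9 ± 8.6 against 13.4 ± 2.3 CPM and Fbln1 24.97 ± 7.7 against 11.8 ± 1.1 CPM, differences of 1.14, 1.10 and 1.08 on the log2 scale. Col1a2, Col3a1 and Dcn, which are made by most collagen-producing fibroblasts, had log2 fold changes of 0.82, 1.03 and 0.80. The median of the members was 0.63, beside −0.00 over all genes, and 34 of 40 lay above 0, beside 49.6%. No member was called by edgeR, 0 of 40 beside 0.0137% of all genes, and the smallest adjusted p was 0.107, for Prelp and Postn. An unadjusted p under 0.05 was reached by 22 members, 20 higher and 2 lower (Col6a1 and Col5a1), beside 4.97% of all genes higher and 4.37% lower, 2052 genes in all. In 10 members every knockdown library lay above every saline library, beside 2.18% of all genes: Col1a2, Prelp, Fbln1, Fbn1, Fn1, Postn, Mgp, Pcolce, Slc6a13 and Slc47a1. In 0 members did every knockdown library lie below, beside 2.16%. DESeq2 called 9 members, all higher, beside 0.669% of all genes: Fbln1, Prelp, Postn, Col1a2, Fn1, Mgp, Fbn1, Dcn and Col3a1, with adjusted p between 4.8e-06 for Prelp and 0.0485 for Col3a1. Without knockdown replicate 5, edgeR called Prelp, Fbln1 and Postn (adjusted p = 0.0364, 0.0376 and 0.0415), beside 0.244% of all genes, while limma voom called 0. With the CT010467.1 covariate 13 members had an unadjusted p under 0.05, beside 7.02% of all genes, and the median was 0.53. The 3 comparisons share groups pairwise and are not independent of each other.

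**Figure D1:**
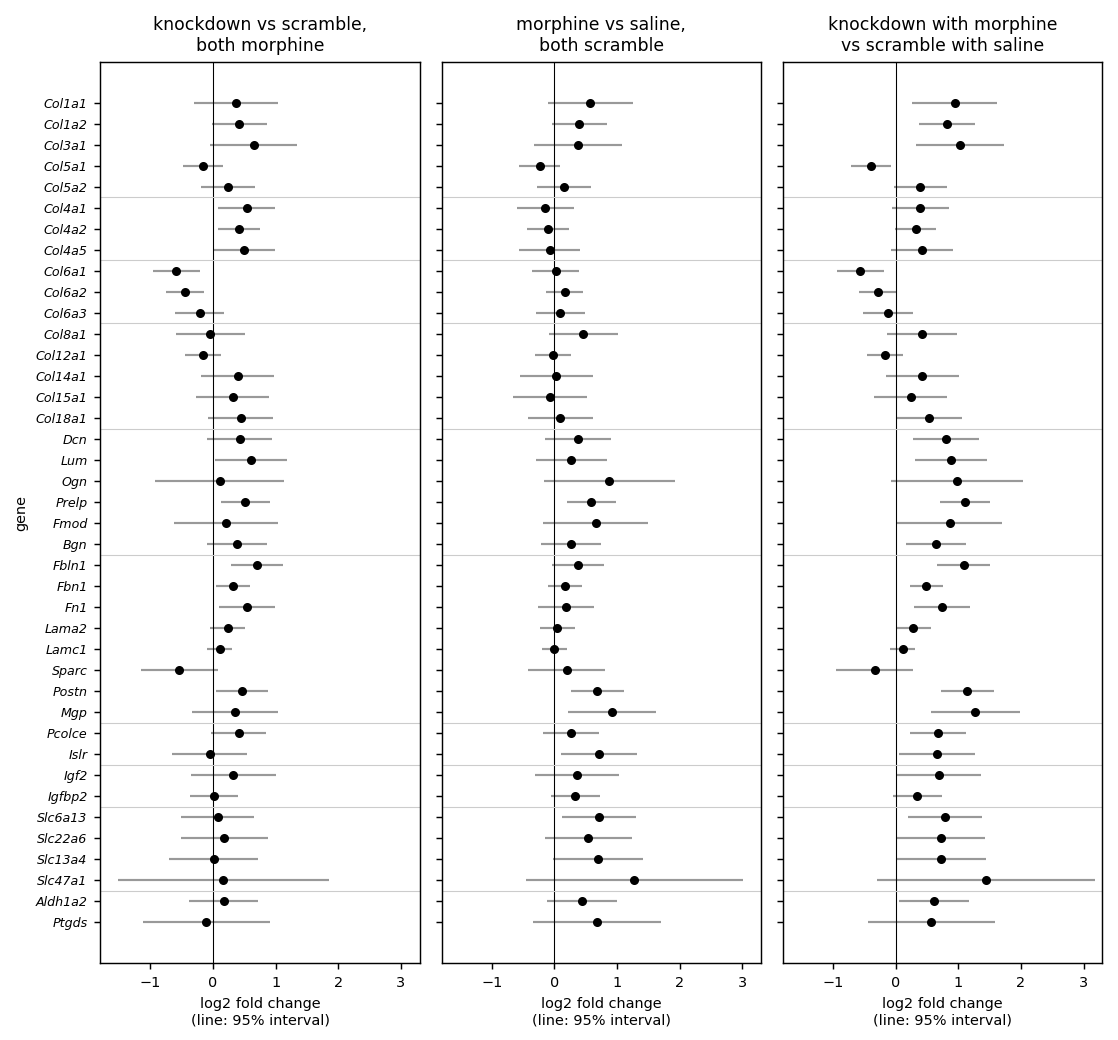
Log2 fold change of each of the 40 members (points) with its 95% interval from edgeR (lines) in the 3 comparisons, with genes grouped by role and the first-named group over the other. Most points lie to the right of 0, 31 of 40 for knockdown against scramble and 34 of 40 in the other comparisons, and collagen VI lies to the left of 0 where the knockdown is compared.

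Among the fibrillar collagens, which form the tensile fibres of connective tissue, collagens I and III stood apart from Col5a1, a chain of collagen V. Col1a1, the alpha 1 chain of collagen I (chromosome 11, 94936224 to 94953042 on mm10), stood at 40.3, 25.5, 25.6 and 18.4 CPM in the knockdown libraries, against 27.7, 16.3, 14.8 and 26.2 CPM in the scramble morphine libraries and 11.5, 10.4, 13.5 and 21.8 CPM in the saline libraries. Col1a2, the alpha 2 chain (chromosome 6, 4504814 to 4541544), stood at 71.1, 54.6, 54.0 and 42.8 CPM with the knockdown, 53.5, 32.8, 30.5 and 49.1 CPM with scramble and morphine and 27.7, 28.8, 29.7 and 39.7 CPM with saline. Col3a1, the fibre-forming partner of collagen I in pliable tissue (chromosome 1, 45311538 to 45349706), stood at 18.6, 10.1, 9.33 and 12.3 CPM with the knockdown, 10.8, 6.78, 5.68 and 8.73 CPM with scramble and morphine and 4.94, 3.22, 6.62 and 9.85 CPM with saline. In these 3 genes knockdown replicate 1 was the highest of all 12 libraries and saline replicate 5 the highest of the saline libraries, and the Col1a2 levels of the knockdown and saline groups were the only ones of these that did not overlap. The log2 fold changes of Col1a2 were 0.42 (SE 0.20) for knockdown against scramble, 0.40 (SE 0.20) for morphine against saline and 0.82 (SE 0.20) for the knockdown with morphine against saline, with edgeR adjusted p = 0.437, 0.999 and 0.309. Col5a1, which nucleates collagen I fibrils and had the highest level per length of the 5 at 5.74 CPM per kilobase, ran the other way, at 51.5, 40.6, 36.1 and 42.3 CPM with the knockdown, 58.6, 45.0, 49.1 and 37.6 CPM with scramble and morphine and 47.3, 52.3, 71.0 and 53.5 CPM with saline. Its log2 fold change for the knockdown with morphine against saline was −0.39 (SE 0.15, edgeR adjusted p = 0.439). Col5a2, the other chain of collagen V, lay between 6.38 and 14.9 CPM. Its log2 fold changes, between 0.16 and 0.39, had the same direction as those of collagens I and III. The median log2 fold change of the 5 genes was 0.37, 0.38 and 0.82 in the order of the comparisons above.

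The 3 basement membrane collagens stood above scramble with the knockdown, among mice given morphine, and close to saline with scramble and morphine. Col4a2 (chromosome 8, 11312805 to 11449287), the highest of the 3 per length at 14.1 CPM per kilobase, stood at 130.4, 111, 118 and 78.2 CPM in the knockdown libraries, 78.9, 79.6, 81.6 and 87.3 CPM in the scramble morphine libraries and 67.2, 88.1, 110.4 and 85.4 CPM in the saline libraries. Col4a1, which assembles with it into a heterotrimer, stood at 103, 73.0, 99.2 and 56.2 CPM with the knockdown, 54.6, 60.7, 54.5 and 58.2 CPM with scramble and morphine and 44.9, 63.5, 85.2 and 59.0 CPM with saline. For both genes knockdown replicates 1, 2 and 3 lay above all scramble morphine libraries and replicate 5 did not, while saline replicate 4 was the highest saline library. The log2 fold changes of Col4a1 and Col4a2 for knockdown against scramble were 0.54 (SE 0.21) and 0.42 (SE 0.15), with edgeR adjusted p = 0.360 and 0.340. Col4a5, a chain on the X chromosome that joins other collagen IV networks, lay between 3.80 and 12.7 CPM and had 0.50 (SE 0.23) in that comparison. These 3 members had a median of 0.50 for knockdown against scramble, −0.10 for morphine against saline and 0.39 for the knockdown with morphine against saline. Reads from the short overlap of Col4a1 and Col4a2 cannot be assigned with certainty where counting ignores the strand, which is not given in the sources used here.

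Collagen VI, which links cells to fibrillar matrix, was the one role in which all members stood below scramble with the knockdown. Col6a1 (chromosome 10, 76708792 to 76726168) had the highest level per length of any collagen here, 31.7 CPM per kilobase. Its levels were 111, 98.7, 71.9 and 137.6 CPM with the knockdown, 164, 156, 185 and 125 CPM with scramble and morphine and 149, 172, 132 and 166 CPM with saline. Col6a2, its neighbour on chromosome 10 (76595762 to 76623630), stood at 36.6, 41.2, 31.0 and 43.4 CPM with the knockdown, 55.1, 48.1, 52.3 and 51.8 CPM with scramble and morphine and 47.7, 52.8, 31.9 and 52.9 CPM with saline. Knockdown replicate 3 was the lowest of all 12 libraries for both genes, and saline replicate 4 the lowest saline library for both. The log2 fold changes for knockdown against scramble were −0.58 (SE 0.17) for Col6a1 and −0.45 (SE 0.14) for Col6a2, with edgeR adjusted p = 0.293 and 0.309, and −0.21 (SE 0.19) for Col6a3, which lay between 3.41 and 6.22 CPM. Col6a1 had −0.56 (SE 0.17, edgeR adjusted p = 0.377) for the knockdown with morphine against saline, and 0.02 (SE 0.17, edgeR adjusted p = 0.999) between the scramble groups.

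The 5 remaining collagens lay on both sides of 0, and their groups overlapped throughout. Col12a1, a fibril-associated collagen and the highest of them per length at 3.06 CPM per kilobase, stood at 44.7, 39.6, 33.9 and 53.8 CPM with the knockdown, 54.9, 45.4, 45.4 and 46.9 CPM with scramble and morphine and 44.4, 40.4, 56.0 and 53.9 CPM with saline. Its log2 fold changes were −0.16, −0.02 and −0.18. Col18a1, the source of endostatin in vascular basement membrane, averaged 10.98 ± 3.7, 8.07 ± 1.8 and 7.57 ± 2.2 CPM in the knockdown, scramble morphine and saline libraries (SD, n = 4 each). Col15a1, a basement membrane zone collagen, Col8a1, a short-chain collagen of vessel walls, and Col14a1, which sits on fibril surfaces, lay between 1.06 and 12.1 CPM in all libraries. Col14a1 had the lowest level per length of the 40 members, 0.26 CPM per kilobase. The median of the 5 was 0.31, 0.03 and 0.42 in the 3 comparisons.

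All 6 small leucine-rich proteoglycans, which bind collagen fibrils and set their width, lay above 0 in each of the 3 comparisons, with medians of 0.40, 0.48 and 0.87. Prelp (chromosome 1, 133910304 to 133921414) stood at 41.2, 24.1, 28.1 and 22.1 CPM in the knockdown libraries, 24.0, 19.6, 16.6 and 20.5 CPM in the scramble morphine libraries and 13.4, 11.04, 12.8 and 16.5 CPM in the saline libraries. Every morphine library of either virus lay above every saline library, and scramble morphine replicate 1 reached into the knockdown range. Its log2 fold change was 0.52 (SE 0.18) for knockdown against scramble, 0.59 (SE 0.18) for morphine against saline and 1.10 (SE 0.18) for the knockdown with morphine against saline, with edgeR adjusted p = 0.327, 0.999 and 0.107. Dcn, decorin, the commonest proteoglycan of collagen I fibrils, stood at 34.4, 21.0, 20.8 and 18.6 CPM with the knockdown, 21.3, 15.3, 13.1 and 20.7 CPM with scramble and morphine and 12.8, 9.12, 13.7 and 18.7 CPM with saline. Fmod, fibromodulin, the highest of the 6 per length at 8.57 CPM per kilobase, stood at 35.5, 39.7, 34.0 and 31.5 CPM with the knockdown, 36.6, 24.9, 18.6 and 41.8 CPM with scramble and morphine and 15.2, 16.6, 9.97 and 35.7 CPM with saline. For both, saline replicate 5 reached the range of the knockdown libraries, and the scramble morphine libraries spread over the ranges of both other groups. Lum, lumican, averaged 6.19 ± 2.5, 4.06 ± 0.81 and 3.37 ± 0.84 CPM in the knockdown, scramble morphine and saline groups (SD, n = 4 each), and Bgn, biglycan, 26.3 ± 5.9, 20.2 ± 4.6 and 16.8 ± 5.3 CPM. Ogn, osteoglycin, which lies within the antisense gene Cenpp, had the widest spread of the 6, between 2.11 and 15.7 CPM.

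Of the 8 matrix glycoproteins, 7 lay above 0 for knockdown against scramble, with a median of 0.33, and the elastic fibre proteins fibulin-1 and fibrillin-1 were among them. Fbln1 (chromosome 15, 85205949 to 85286535) stood at 36.1, 22.0, 23.6 and 18.2 CPM in the knockdown libraries, 14.6, 15.4, 11.3 and 19.9 CPM in the scramble morphine libraries and 11.4, 10.5, 12.2 and 12.98 CPM in the saline libraries. Knockdown replicates 1, 2 and 3 lay above all scramble morphine libraries, and the 4 knockdown libraries lay above all saline libraries. The log2 fold change was 0.70 (SE 0.20), 0.38 (SE 0.20) and 1.08 (SE 0.20) in the 3 comparisons, with edgeR adjusted p = 0.271, 0.999 and 0.138. Fbn1, fibrillin-1, the core of microfibrils, stood at 15.6, 12.7, 18.5 and 14.9 CPM with the knockdown, 14.2, 12.4, 11.8 and 11.2 CPM with scramble and morphine and 11.3, 9.45, 12.3 and 10.9 CPM with saline. The knockdown with morphine was above saline in 4 of 4 libraries at a log2 fold change of 0.49 (SE 0.13, edgeR adjusted p = 0.308).

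Fn1, fibronectin, an adhesion protein that fibroblasts and vascular cells both make (chromosome 1, 71585520 to 71653200), stood at 154, 126, 122 and 155 CPM with the knockdown, 94.5, 102, 68.1 and 116 CPM with scramble and morphine and 76.0, 106, 55.7 and 97.4 CPM with saline. It was the one member whose knockdown libraries all lay above the scramble morphine libraries, at a log2 fold change of 0.55 (SE 0.20, edgeR adjusted p = 0.350). Postn (chromosome 3, 54361109 to 54391037) stood at 6.05, 3.90, 5.14 and 3.99 CPM with the knockdown, 4.26, 3.29, 2.55 and 3.77 CPM with scramble and morphine and 2.24, 1.92, 2.40 and 2.08 CPM with saline. All 8 morphine libraries lay above all saline libraries, and the log2 fold changes of Postn were 0.46 (SE 0.20), 0.69 (SE 0.20) and 1.14 (SE 0.20), with edgeR adjusted p = 0.379, 0.999 and 0.107. Mgp, matrix Gla protein (chromosome 6, 136872435 to 136875823), stood at 29.0, 30.6, 17.1 and 23.3 CPM with the knockdown, 24.6, 15.9, 11.5 and 26.1 CPM with scramble and morphine and 9.88, 10.6, 5.94 and 15.1 CPM with saline. Its log2 fold change for the knockdown with morphine against saline, 1.27 (SE 0.32, edgeR adjusted p = 0.328), was exceeded among the members by that of Slc47a1 alone. Sparc, osteonectin, which endothelium and glia also make, was the highest of the 8 per length at 45.4 CPM per kilobase. Where the knockdown was compared, Sparc ran opposite to these. It stood at 135, 107, 109 and 204.5 CPM with the knockdown, 199.8, 221, 166 and 218 CPM with scramble and morphine and 180.0, 196, 96.7 and 229 CPM with saline, and its log2 fold change for knockdown against scramble was −0.54 (SE 0.28, edgeR adjusted p = 0.468). For morphine against saline the log2 fold change of Sparc was 0.20 (SE 0.28), in the same direction as Fn1, Postn and Mgp. The laminin chains Lama2 and Lamc1, parts of pial and vascular basement membrane, varied least: Lamc1 averaged 46.7 ± 2.8, 43.4 ± 4.1 and 43.4 ± 6.0 CPM and Lama2 16.7 ± 1.4, 14.2 ± 2.6 and 13.8 ± 1.8 CPM in the knockdown, scramble morphine and saline groups (SD, n = 4 each).

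**Figure D2:**
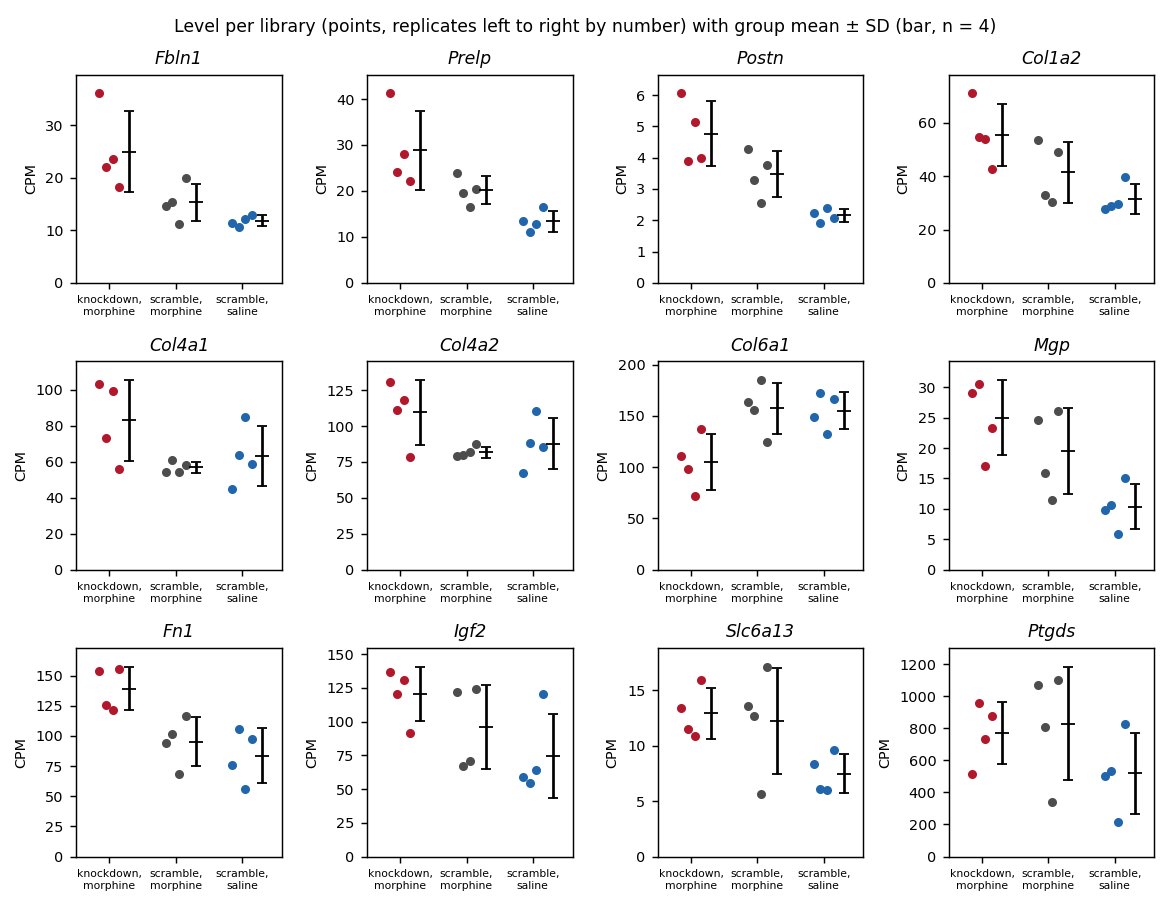
Level in CPM of 12 members in each library (points) with the mean ± SD of 4 libraries (bars), for knockdown with morphine, scramble with morphine and scramble with saline. Postn, Prelp, Fbln1 and Col1a2 have all 4 knockdown libraries above the saline libraries, Col6a1 averages 105, 157 and 155 CPM in the 3 groups, and Slc6a13 and Ptgds have a low scramble morphine replicate 4, at 5.61 and 339 CPM.

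Among the secreted helpers, Islr, a leucine-rich secreted protein of mesenchymal cells, stood at 23.1, 27.4, 26.0 and 30.3 CPM with the knockdown, 37.8, 21.3, 16.9 and 34.7 CPM with scramble and morphine and 16.7, 15.5, 10.8 and 24.5 CPM with saline. The log2 fold change of Islr was −0.05 (SE 0.28) for knockdown against scramble and 0.72 (SE 0.28) for morphine against saline (edgeR adjusted p = 0.963 and 0.999), and it shares its strand with the overlapping gene Islr2. Pcolce, the enhancer of procollagen C-proteinase, averaged 11.7 ± 1.6, 8.73 ± 2.8 and 7.30 ± 1.2 CPM in the knockdown, scramble morphine and saline libraries (SD, n = 4 each). Igf2, a growth factor that meningeal cells release (chromosome 7, 142650766 to 142666816), stood at 137, 121, 131 and 91.8 CPM with the knockdown, 122, 66.9, 70.9 and 124 CPM with scramble and morphine and 58.7, 54.6, 64.4 and 120.5 CPM with saline. Scramble morphine replicates 1 and 5 and saline replicate 5 lay in the knockdown range and the other scramble libraries below it, and the log2 fold changes were 0.32, 0.37 and 0.69 (SE 0.30 each). Igfbp2, a binding protein of insulin-like growth factors with 18.7 CPM per kilobase, stood at 42.3, 42.0, 39.1 and 26.3 CPM with the knockdown, 44.0, 31.3, 29.0 and 43.5 CPM with scramble and morphine and 28.1, 26.3, 25.8 and 37.5 CPM with saline, with log2 fold changes of 0.02, 0.33 and 0.35.

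The 4 solute carriers of arachnoid and pial cells averaged more in both morphine groups than in saline, with median log2 fold changes of 0.12 for knockdown against scramble, 0.71 for morphine against saline and 0.75 for the knockdown with morphine against saline. Slc6a13, a GABA and taurine transporter (chromosome 6, 121300227 to 121337733), stood at 13.4, 11.5, 10.9 and 15.9 CPM with the knockdown, 13.6, 12.7, 5.61 and 17.1 CPM with scramble and morphine and 8.33, 6.05, 5.98 and 9.60 CPM with saline. All knockdown libraries lay above all saline libraries, and of the scramble morphine libraries only replicate 4 did not. The log2 fold change of Slc6a13 was 0.71 (SE 0.27) for morphine against saline, with edgeR adjusted p = 0.999, and 0.07 with a 95% interval of −0.51 to 0.66 for knockdown against scramble. Slc13a4, a sulfate transporter and the highest of the 4 per length at 4.10 CPM per kilobase, stood at 21.6, 22.4, 19.0 and 22.7 CPM with the knockdown, 25.8, 17.0, 14.1 and 27.8 CPM with scramble and morphine and 10.97, 10.5, 7.32 and 23.4 CPM with saline. Its saline replicate 5 lay above all knockdown libraries, and the other saline libraries below all libraries given morphine. Slc22a6, an organic anion transporter, averaged 11.4 ± 2.2, 10.04 ± 4.4 and 6.92 ± 2.6 CPM in the knockdown, scramble morphine and saline groups (SD, n = 4 each). Slc47a1, an exporter of organic cations, had the widest ratio of highest to lowest library among the members, between 0.19 CPM in saline replicate 4 and 9.52 CPM in scramble morphine replicate 5. Its lowest raw count was 12. The log2 fold change of Slc47a1 was 1.28 (SE 0.78) for morphine against saline and 1.44 (SE 0.78) for the knockdown with morphine against saline. The edgeR adjusted p were 0.999 and 0.620.

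Ptgds, prostaglandin D synthase, which meningeal cells and oligodendrocytes both make, was the most abundant member, at 428 CPM per kilobase and 17.4 to 43.8% of the members' summed CPM per library. It stood at 512, 957, 732 and 877 CPM with the knockdown, 1069, 806, 339 and 1099 CPM with scramble and morphine and 499.6, 532, 212 and 828 CPM with saline. The libraries with the least were replicate 4 of both scramble groups, and the groups overlapped in every comparison, with log2 fold changes of −0.11, 0.68 and 0.57 (SE 0.45 each). Aldh1a2, the retinoic acid synthase of meningeal cells, averaged 15.0 ± 1.4, 13.3 ± 4.5 and 9.84 ± 3.2 CPM in the knockdown, scramble morphine and saline groups (SD, n = 4 each).

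Much of the spread among the members lay between libraries of the same group. Knockdown replicate 1 was the highest of all 12 libraries for 16 of 40 members and scramble morphine replicate 5 for 9. Within the scramble morphine group, replicate 4 was the lowest library for 32 members, while replicates 1 and 5 were the highest for 20 and 16. Within the saline group replicate 5 was the highest for 29 members, and the lowest libraries of all 12 were saline replicates 3 and 4, for 14 and 13 members. The median deviation of the members from their own 12-library means was 0.42, 0.26, 0.24 and 0.21 on the log2 scale in the knockdown libraries, 0.33, −0.07, −0.40 and 0.22 in the scramble morphine libraries and −0.39, −0.49, −0.45 and 0.16 in the saline libraries. The knockdown libraries were thus all above 0, the scramble morphine libraries 2 above and 2 below, and the saline libraries below 0 but for replicate 5.

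**Figure D3:**
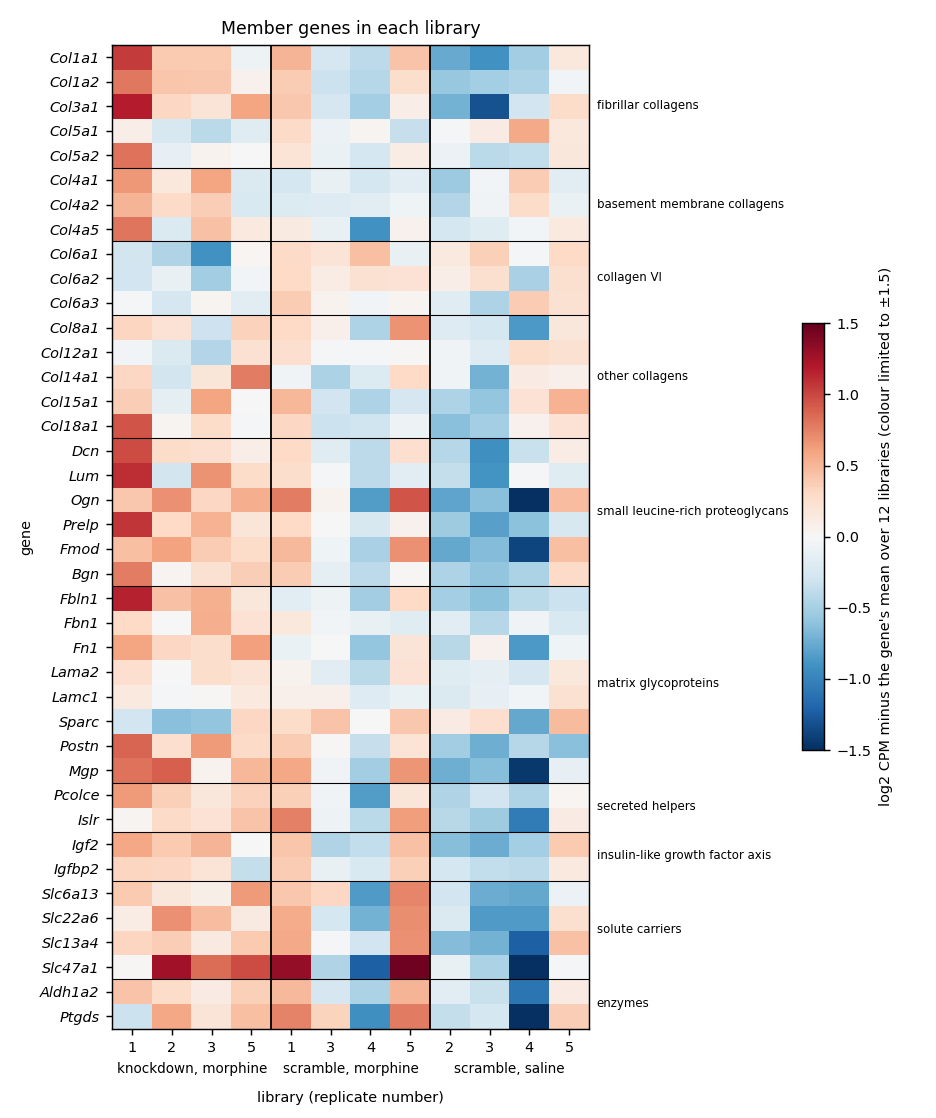
Log2 CPM of each member minus its mean over 12 libraries, with libraries in columns by group and replicate number and genes in rows by role. Scramble morphine replicate 4 is blue for most rows, saline replicate 5 is the one saline library that is mostly red, and Col6a1, Col6a2 and Sparc are blue in most knockdown libraries.

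Roles did not share one order of libraries. The small leucine-rich proteoglycans were furthest above their means in knockdown replicate 1, by a median of 0.87, and furthest below in saline replicate 3, at −0.73. The solute carriers were furthest above in scramble morphine replicate 5, at 0.72, and furthest below in saline replicate 4, at −1.04, and in knockdown replicate 1 they stood at 0.21, the lowest of the knockdown libraries. The basement membrane collagens stood at 0.66 in knockdown replicate 1 and 0.27 in saline replicate 4, where the solute carriers were at their lowest. Collagen VI lay below its means in all 4 knockdown libraries, between −0.52 and −0.04, and above in all scramble morphine libraries, between 0.04 and 0.30.

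**Figure D4:**
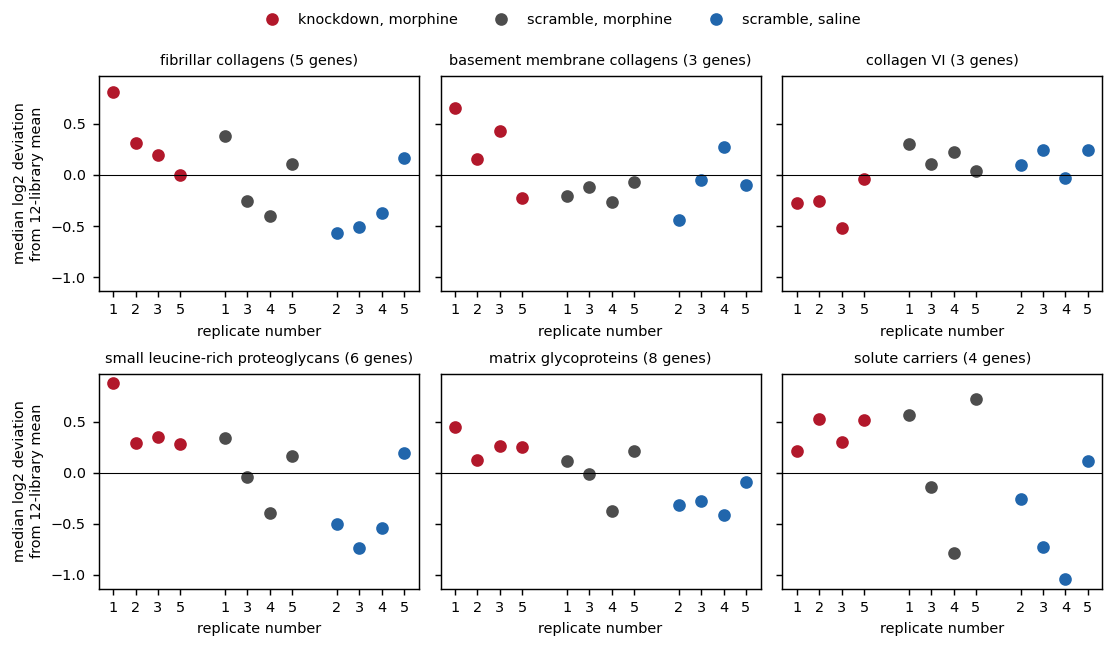
Median over the members of a role of log2 CPM minus the gene's 12-library mean, per library, for 6 roles. Knockdown replicate 1 is the top library for the fibrillar collagens, basement membrane collagens, proteoglycans and glycoproteins (0.81, 0.66, 0.87 and 0.44), scramble morphine replicate 5 is the top library for the solute carriers (0.72), and collagen VI is below 0 in the 4 knockdown libraries.

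Other genes of collagen making and turnover had medians nearer to 0 than the members did. Of 46 enzymes, chaperones, proteases, inhibitors and transforming growth factor beta genes tested, 33, 23 and 35 lay above 0 in the 3 comparisons, beside 50.7, 49.5 and 49.6% of all genes. Their medians were 0.12, 0.01 and 0.11, and 0 were called by edgeR in any comparison. At an unadjusted p under 0.05 there were 8 higher and 3 lower for knockdown against scramble, beside 5.87 and 6.17% of all genes. There were 2 higher and 0 lower for morphine against saline, beside 1.67 and 1.82%, and 7 higher and 1 lower for the knockdown with morphine against saline, beside 4.97 and 4.37%. Their smallest p was that of Tgfbr3, the betaglycan coreceptor, in the first comparison, at 14.8 ± 2.0 CPM with the knockdown and 10.8 ± 1.9 CPM with scramble (SD, n = 4) with a difference of 0.45 on the log2 scale (SE 0.13, edgeR adjusted p = 0.283). In the other comparisons it was that of Timp3, a matrix-bound inhibitor of metalloproteinases, at 124 ± 18.0 CPM with the knockdown and morphine, 99.7 ± 11.8 CPM with scramble and morphine and 84.1 ± 9.99 CPM with saline (SD, n = 4 each).

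Fibroblast and arachnoid genes outside the members also lay mostly above 0. Of 38 such genes 37 were tested, and 29, 33 and 33 lay above 0, beside 50.7, 49.5 and 49.6% of all genes. Their medians were 0.20, 0.43 and 0.66, with edgeR calls of 0 in each comparison. Of the 37, 3, 6 and 17 were higher at an unadjusted p under 0.05, beside 5.87, 1.67 and 4.97% of all genes, and 0 were lower. Efemp1, fibulin-3, averaged 19.3 ± 3.7, 14.9 ± 4.3 and 9.95 ± 2.3 CPM in the knockdown, scramble morphine and saline groups (SD, n = 4 each), and its log2 fold change for the knockdown with morphine against saline was 0.95 (SE 0.21, edgeR adjusted p = 0.260). Foxc1, a transcription factor of meningeal development, averaged 11.1 ± 2.6, 9.60 ± 1.8 and 7.03 ± 1.9 CPM in the same groups. The summed level of these genes ran from 449.9 to 516 CPM in the knockdown libraries, 373 to 497 CPM in the scramble morphine libraries and 349.9 to 443 CPM in the saline libraries.

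Markers of cells that sit beside fibroblasts were measured in the same libraries. The 17 pericyte and smooth muscle genes and the 18 endothelial genes lay above 0 in 16 cases each for knockdown against scramble, beside 50.7% of all genes, with medians of 0.25 and 0.23. For morphine against saline they did so in 8 and 5 cases, beside 49.5%, with medians of −0.00 and −0.12. At an unadjusted p under 0.05, 5 and 6 of them were higher in the first comparison, beside 5.87% of all genes, and 0 lower. In the second, 1 and 0 of them were higher and 0 and 1 lower, beside 1.67 and 1.82%. Against saline with the knockdown and morphine, 6 and 1 of them were higher, beside 4.97%, and 0 lower. Their sums ran from 251 to 380 and 559 to 756 CPM in the knockdown libraries, 235 to 277 and 499 to 578 CPM in the scramble morphine libraries and 234 to 288 and 509 to 726 CPM in the saline libraries. The 10 genes of border macrophages, which share the meningeal and perivascular spaces, lay above 0 in 9, 8 and 10 cases, beside 50.7, 49.5 and 49.6% of all genes, with medians of 0.66, 0.32 and 0.67. Of the 10, 3, 1 and 5 were higher at an unadjusted p under 0.05, beside 5.87, 1.67 and 4.97% of all genes, and 0 were lower. They summed to 72.9 to 120 CPM in the knockdown libraries, 42.6 to 71.7 CPM in the scramble morphine libraries and 52.5 to 61.6 CPM in the saline libraries. Mrc1, the mannose receptor of these macrophages, stood at 14.8, 9.37, 11.8 and 10.6 CPM with the knockdown, above the 3.93 to 7.89 CPM of the scramble morphine libraries and the 4.70 to 5.74 CPM of the saline libraries. The 12 oligodendrocyte genes, relevant to Ptgds, all lay below 0 for knockdown against scramble, where 50.7% of all genes lay above 0, with a median of −0.32. Of the 12, 6 were lower there at an unadjusted p under 0.05, beside 6.17% of all genes, and 0 higher. They summed to 1278 to 2171, 1964 to 2685 and 1853 to 2431 CPM in the knockdown, scramble morphine and saline libraries. The 12 astrocyte genes lay above 0 in 3, 12 and 9 cases, beside 50.7, 49.5 and 49.6% of all genes, with medians of −0.10, 0.19 and 0.09. Of the 12, 1, 1 and 2 were higher at an unadjusted p under 0.05, beside 5.87, 1.67 and 4.97% of all genes, and 0 were lower. No gene of these lists was at 0 in all libraries or called by edgeR, and their part in the members' differences was not tested.

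Choroid plexus, which shares several transporters and Igf2 with the meninges, was scarcely represented. Ttr, its defining transcript, was between 0 and 0.611 CPM, and all 12 choroid plexus genes together reached 5.89 to 8.08 CPM in the knockdown libraries, 5.78 to 8.92 CPM in the scramble morphine libraries and 4.46 to 7.44 CPM in the saline libraries. The 12 cortical neuron genes had median log2 fold changes of 0.03, −0.01 and 0.04. The gene with the smallest p in each marker list is given as its log2 fold change. For knockdown against scramble these were Pdgfra of the fibroblast and arachnoid list at 0.20, Myl9 of smooth muscle at 0.50, Pecam1 of endothelium at 0.34, Mrc1 at 1.01, Kl of choroid plexus at −0.66, Ermn of oligodendrocytes at −0.53, Aldh1l1 of astrocytes at 0.21, the inhibitory neuron gene Slc32a1 at 0.38 and the red cell gene Slc4a1 at 1.05, with edgeR adjusted p of at least 0.239. Pdgfra did not follow its list for morphine against saline, at −0.05 beside a list median of 0.43. Slc4a1 was near the floor, at 0.25 ± 0.14 CPM with the knockdown and 0.12 ± 0.08 CPM with scramble (SD, n = 4), and its log2 fold change had an SE of 0.85. For morphine against saline they were Efemp1 at 0.58, Lmod1 at 0.57, Erg at −0.46, F13a1 at 0.58, Kl at 0.60, Mal at 0.22, Gjb6 at 0.52, Gad2 at −0.06 and Alas2 at −1.06 in the same order of lists, each with an edgeR adjusted p of 0.999. For the knockdown with morphine against saline they were Efemp1 at 0.95, Myl9 at 0.72, Slc2a1 at 0.23, Mrc1 at 1.16, Clic6 at 2.20, Ugt8a at −0.51, Aldh1l1 at 0.36, Neurod6 at −0.40 and Hbb-bs at −0.73, with edgeR adjusted p of at least 0.107. Clic6 was also near the floor, at 0.61 ± 0.40 CPM with the knockdown and 0.13 ± 0.09 CPM with saline (SD, n = 4). The SE of its log2 fold change was 0.73.

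**Figure D5:**
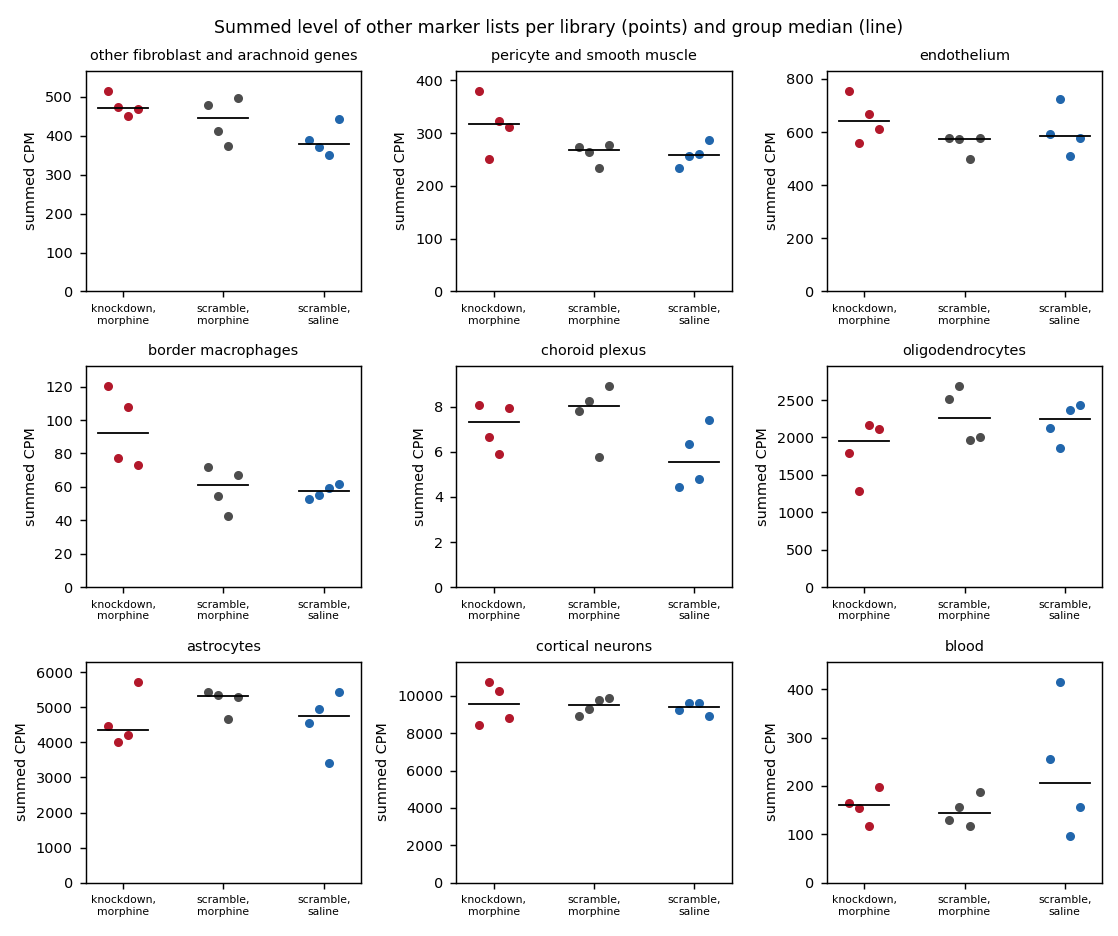
Summed CPM of 9 marker lists per library (points) with the group median (line), for knockdown with morphine, scramble with morphine and scramble with saline. All 4 knockdown libraries lie above the scramble morphine and saline libraries for border macrophages (72.9 to 120 CPM against at most 71.7), and the choroid plexus sum reaches 8.92 CPM at its highest.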

How the data were processed

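The authors deposited raw gene counts, without normalization, for 12 libraries of RNA selected by its poly(A) tail, per the labels' protocols. Build mm10 and the tools StringTie 1.3.4d, HISAT2 2.0.4, cutadapt 1.9, edgeR and DESeq2 are named in the submitters' processing notes with no roles, and whether counting used the strand is not given in the sources used here. The 23 of 40 members whose span overlaps another annotated gene, 11 of them on the same strand, are uncertain for that reason, among them Col4a1 with Col4a2, Ogn with Cenpp, Col18a1 with Slc19a1, Islr with Islr2, Pcolce with Fbxo24 and Igf2 with Igf2os. Symbols and coordinates came from GENCODE M21 (mm10), which matched 55141 of 55401 identifiers, and promoter sequences from RefSeq.

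Genes were kept by filterByExpr (minimum count 10), scaled by TMM and fitted with 1 mean per group over all 12 libraries in edgeR 4.0.16 (R 4.3.3), by robust quasi-likelihood with 9 residual degrees of freedom and a biological coefficient of variation of 23.2%. P-values were two-sided and adjusted by Benjamini-Hochberg over 21958 genes at 0.05. Levels between genes were compared as CPM per kilobase of exons, and deviations on log2(CPM + 0.1). Alternatives were other scalings, filters of 1 CPM in 4 libraries or none, DESeq2 1.42.0, limma voom 3.58.1 with quality weights, only the groups compared, a block for the replicate number, the share of CT010467.1 or 1 surrogate variable (sva 3.50.0) as a covariate, the removal of saline replicate 4 with knockdown replicate 3, and each library left out. The members, lists and alternatives were chosen with earlier results of these data known. Values per library are given for members with the 6 smallest p in a comparison, for the highest per length of each role, and for Col1a1, Col1a2, Col3a1, Dcn, Igf2, Slc6a13 and Ptgds. Of each other list, the gene with the smallest p is named as a value; Col4a1, Foxc1, Mrc1 and Ttr are added as defining genes. The edgeR fit, alone of these steps, was also run on simulated counts in which 200 genes were changed.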

Additional observations from a re-analysis of the deposited data

Results flagged for a closer look

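Of 120 sets of 4 libraries tested, 40 genes in 3 groups, 7 had a library separated from the other 3 by more than Dixon's 95% critical share of the group's range, which chance passes in about 1 in 20. In the knockdown group, replicate 1 held 34.4 CPM of Dcn, beside 18.6 to 21.0 CPM in the other libraries, and 14.9 CPM of Col5a2, beside 7.73 to 8.74 CPM. In the scramble morphine group, replicate 1 held 54.9 CPM of Col12a1, beside 45.4 to 46.9 CPM, and 11.3 CPM of Col15a1, beside 5.76 to 6.69 CPM. In the saline group, replicate 5 held 39.7 CPM of Col1a2, beside 27.7 to 29.7 CPM, 24.7 CPM of Bgn, beside 13.4 to 14.7 CPM, and 120.5 CPM of Igf2, beside 54.6 to 64.4 CPM. Each of these libraries was the highest of its group. Genes measured in the same library are not separate observations.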

How the results depend on the processing

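For knockdown against scramble, edgeR called 0 genes, against 2 without a filter, 157 with DESeq2, 1 with limma voom, 2 with the replicate block and 5 without saline replicate 4 and knockdown replicate 3, and 0 to 375 with each library left out. For morphine against saline the 0 calls were 4 with DESeq2, 1 with the compared groups only and 1 with the replicate block. For the knockdown with morphine against saline the 3 calls were 5 without a filter or with the compared groups only and 147 with DESeq2. They were 0 with library totals, limma voom, the replicate block, the CT010467.1 covariate, the surrogate variable and without saline replicate 4 and knockdown replicate 3, and 0 to 55 with each library left out. Members called were 2 and 9 with DESeq2 for knockdown against scramble and for the knockdown with morphine against saline, and 0 to 2 and 0 to 3 with each library left out. With the CT010467.1 covariate the member median was −0.11 for knockdown against scramble and 0.59 for morphine against saline. In the first of these comparisons the covariate turned Col1a1 to −0.43, Col1a2 to −0.0013, Col3a1 to −0.15, Dcn to −0.29, Igf2 to −0.042, Prelp to −0.13 and Slc6a13 to −0.040; the cause was not tested. Slc6a13 was also at −0.019 with limma voom and −0.032 with the replicate block, and ran from −0.16 to 0.28 with each library left out, while Ptgds was at 0.20 with the surrogate variable and ran from −0.37 to 0.064. Log2 fold changes kept 1 sign under every alternative for 18, 28 and 39 of 40 members in the 3 comparisons. Libraries with the same replicate number correlated by −0.019 to 0.127 (9 pairs) and others by −0.180 to 0.121. The highest correlation was thus in a same-number pair, and whether such libraries share a batch was not tested. All 40 members passed the filter on low counts, and 0 calls do not show an absence of change.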

Other observations

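Receptors that bind collagen and other matrix were measured beside their ligands. Of 28 integrins, discoidin domain receptors and syndecans tested, 20, 16 and 20 lay above 0 for knockdown against scramble, for morphine against saline and for the knockdown with morphine against saline, beside 50.7, 49.5 and 49.6% of all genes. Their median log2 fold changes were 0.09, 0.03 and 0.11, with 0 calls by edgeR in each comparison. Of the 28, 4, 1 and 6 were higher at an unadjusted p under 0.05, beside 5.87, 1.67 and 4.97% of all genes, and 0 were lower. Ddr2, a receptor tyrosine kinase for fibrillar collagen, stood at 22.4, 18.7, 21.1 and 23.0 CPM in the knockdown libraries, 19.7, 13.4, 11.2 and 17.8 CPM in the scramble morphine libraries and 12.5, 12.8, 10.1 and 16.2 CPM in the saline libraries, so that all knockdown libraries lay above all saline libraries (log2 fold change 0.73, SE 0.17, edgeR adjusted p = 0.290). Sdc4, syndecan-4, which binds fibronectin, stood at 50.4, 48.5, 45.3 and 62.8 CPM in the knockdown libraries, and averaged 51.9 ± 5.9 CPM with scramble and morphine and 38.4 ± 6.9 CPM with saline (SD, n = 4 each).

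The 6 blood genes tested of 7, among them the haemoglobin gene Hbb-bs, had median log2 fold changes of 0.14, −0.74 and −0.54 in the 3 comparisons, and their summed level ran from 117 to 198.5 CPM in the knockdown libraries, 118 to 187 CPM in the scramble morphine libraries and 97.0 to 415 CPM in the saline libraries.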
